A study of Mus musculus with 12 samples.

Results

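The genes described here are 32 markers of T cells and natural killer (NK) cells, read in the liver as a measure of lymphocyte RNA after adenovirus injection. They were picked by name from a table of 55385 features, and each of the 32 names matched 1 feature. RNA-Seq had been performed on 12 livers, 4 in each of 3 groups of male C57BL/6 mice that were 7 weeks old at injection and were killed 7 days later. The experiment asked whether hGULL, a human long noncoding RNA (lncRNA), can stand in for mGULL, a mouse lncRNA of unlike sequence, when mGULL is lost from the liver. The 32 genes lie on 13 chromosomes, 8 of them on chromosome 6 and 6 on chromosome 9. Values are in TPM, a share of all transcripts that is scaled by gene length, so that levels can be compared between genes. Between mice, such a share also moves with the level of the other transcripts.

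The control group, Ad-Ctrl (treatment label GULL_control), received adenovirus carrying Lac together with the pAdV5 vector. The knockdown group, Ad-shmGULL (mGULL_knockdown), received a short hairpin RNA against mGULL with pAdV5, and the rescue group, Ad-shmGULL+hGULL (hGULL_rescue), received the hairpin with hGULL. The total of active virus was the same in each group. Every mouse was therefore infected, the inserts differed between groups, and no uninfected liver was among the samples analysed here, so the response to the virus itself was not measured. The study's account of this experiment names an intravitreal injection, whereas its general methods name the retro-orbital route. The adenovirus is not limited to 1 cell type by its labels, and the level of mGULL was not analysed here.

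T cells recognise infected cells through the T cell receptor, whose variable chains are held at the surface by the CD3 proteins and signal through the kinases LCK and ZAP70. NK cells lack that receptor and read a balance of activating and inhibitory surface receptors. Both kill target cells by releasing perforin and granzymes from cytotoxic granules, and both make interferon gamma. The healthy liver holds many NK cells and memory T cells, and cytotoxic T cells enter it in numbers about a week after adenovirus infection. In RNA from whole liver, fewer cells of a type and less RNA per cell cannot be told apart.

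The tissue label was borne out by the hepatocyte gene Alb, albumin, at 45790 to 73620 TPM. The defining T cell genes Cd3e and Trac and the NK cell gene Ncr1 were above 0 TPM in each of the 12 livers, and only 1 of the 32 markers, Klrb1c, was listed at 0 in any mouse (Ad-shmGULL replicate 4). The table gives no read counts, so the depth behind a value is unknown, and the spread between mice stands in for its precision. The 12 livers correlated with each other at r = 0.954 to 0.986 over all tested genes, and no liver was a copy of another. 1 mouse stood apart: Ad-Ctrl replicate 1 had the highest level of the 12 mice for 20 of the 27 markers that averaged at least 1 TPM, and the highest in its own group for 26 of them. Within the knockdown group, Ad-shmGULL replicate 1 was the lowest mouse for 23 of the 27. Comparisons below are given with and without these mice where they decide a result.

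**Figure D1:**
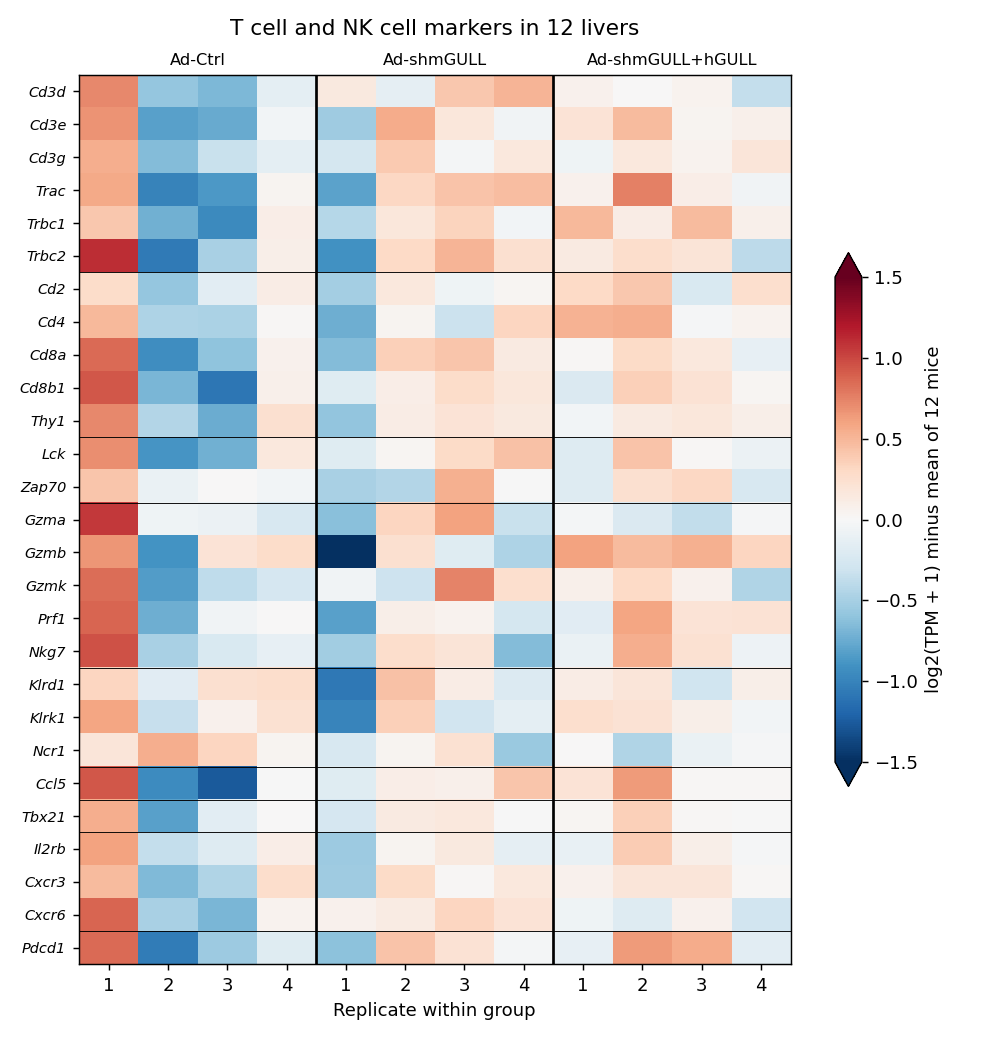
Heat map of the 27 markers with a mean of at least 1 TPM (rows, grouped by role with thin lines) in 12 livers (columns, 4 replicates in each of 3 groups). Color is log2(TPM + 1) less the mean of the 12 mice. Ad-Ctrl replicate 1 is red in all rows, Ad-Ctrl replicates 2 and 3 and Ad-shmGULL replicate 1 are mostly blue, and the 4 rescue livers are paler than the other groups.

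Summed over the 32 markers, the level was 227.2 TPM in Ad-Ctrl replicate 1 and 70.1, 83.4 and 127.2 TPM in the other control livers. The knockdown livers summed to 76.9, 144.9, 149.1 and 130.1 TPM. The rescue livers summed to 135, 170.2, 139.7 and 121.4 TPM. The ranges of all 3 groups overlapped, with means of 127.0 ± 71.2, 125.2 ± 33.2 and 141.6 ± 20.6 TPM (SD, n = 4 each) for control, knockdown and rescue. The groups also differed in width. For the median marker, the highest control liver had 3.56 times the level of the lowest, against 2.51 times in the knockdown group and 1.57 times in the rescue group. The same ratios for the median of all 16378 tested genes were 1.41, 1.53 and 1.26. Without Ad-Ctrl replicate 1 the control ratio was 2.42 for the markers, no wider than that of the knockdown group, and 1.28 for all genes. The difference in spread between groups was not tested.

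The T cell receptor genes were detected as a set. Trac, the constant region of the alpha chain, was measured at 14.2, 4.12, 4.63 and 9.55 TPM in the 4 control livers, in replicate order. It was 4.87, 11.7, 12.8 and 13.2 TPM after knockdown and 9.77, 16.3, 9.98 and 8.91 TPM in the rescue group. The low livers, at under 5 TPM, were Ad-Ctrl replicates 2 and 3 and Ad-shmGULL replicate 1, and the groups overlapped. Trbc2, a constant region of the beta chain, stood at 20.8, 3.88, 6.26 and 9.77 TPM in controls, at 4.38, 11.5, 13.4 and 11.0 TPM after knockdown, and at 10.1, 11.2, 10.6 and 6.75 TPM in the rescue group. Its range in controls, 3.88 to 20.8 TPM, took in every knockdown and rescue liver. Trbc1, the other beta constant region, averaged 4.95 ± 2.59, 5.93 ± 1.49 and 7.33 ± 1.30 TPM in control, knockdown and rescue. Trbc1 and Trbc2 lie 7.1 kb apart on chromosome 6 (GRCm38.p6), and 41.1% of the 50-base stretches in Trbc1 transcripts also occur in Trbc2, so the division of reads between them is uncertain.

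Of the CD3 chains, Cd3e, the epsilon chain, was 5.01, 1.14, 1.23 and 2.68 TPM in controls. It was 1.61, 4.53, 3.26 and 2.62 TPM after knockdown and 3.36, 4.25, 2.89 and 2.98 TPM in the rescue group. The rescue livers lay inside the range of the controls. Cd3d and Cd3g, the delta and gamma chains, averaged 2.35 and 1.30 TPM over the 12 mice, with Ad-Ctrl replicate 1 highest of the 12 for both. The chains did not order the knockdown livers alike: replicate 2 was the highest of that group for Cd3e and Cd3g, and the lowest for Cd3d, at 1.95 TPM. Cd3g, Cd3d and Cd3e are neighbors on chromosome 9, with gaps of 1.3 and 11.7 kb. Cd247, the zeta chain, averaged 0.618 TPM, under the filter.

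Among surface molecules and coreceptors, Cd8a and Cd8b1, which form the coreceptor of cytotoxic T cells, averaged 4.42 and 4.45 TPM, and Cd4, the coreceptor of helper T cells, 2.38 TPM. The ratio of Cd8a to Cd4 was 1.25 to 2.31 in control livers, 1.51 to 3.67 after knockdown and 1.14 to 2.14 in the rescue group, so Cd8a was the higher gene in all 12 livers. This ratio was chosen after the values were seen, and CD4 is also made by some myeloid cells. Cd2, an adhesion receptor, averaged 1.97 TPM, and Thy1, which fibroblasts also express, 4.55 TPM. Cd5, a damper of receptor signaling, averaged 0.874 TPM and was not tested in the fit across genes. The kinases Lck and Zap70 averaged 3.99 and 3.57 TPM. Lck was 3.64 ± 2.41, 4.34 ± 1.01 and 3.98 ± 0.982 TPM in control, knockdown and rescue, and Zap70 was 3.74 ± 0.827, 3.35 ± 1.52 and 3.62 ± 0.893 TPM, so that Lck had the wider spread among the controls and Zap70 after knockdown.

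The cytotoxic granule genes held the only marker that passed a threshold. Gzmb, encoding granzyme B, the protease that starts cell death in targets, was 13.5, 3.90, 9.52 and 10.03 TPM in the control livers. After knockdown it was 1.69, 9.75, 7.01 and 5.59 TPM, and in the rescue group 12.8, 11.6, 12.2 and 10.4 TPM. All 4 rescue livers were above all 4 knockdown livers, while the controls overlapped both groups. Gzma, encoding granzyme A, did not show that separation. It was 11.3, 4.64, 4.56 and 4 TPM in controls, 2.81, 6.37, 8.01 and 3.70 TPM after knockdown, and 4.81, 4.08, 3.55 and 4.82 TPM in the rescue group. The ratio of Gzmb to Gzma, chosen after the values were seen, was 0.601 to 1.53 in knockdown livers and 2.16 to 3.44 in rescue livers, and 0.841 to 2.51 in controls. Gzmk, a granzyme of memory T cells, averaged 1.21 TPM and ranged from 0.168 TPM (Ad-Ctrl replicate 2) to 2.75 TPM (Ad-Ctrl replicate 1). Prf1, perforin, which opens the target's membrane, averaged 2.16 ± 1.497, 1.51 ± 0.660 and 2.39 ± 0.730 TPM in control, knockdown and rescue.

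Nkg7, a granule membrane protein shared by NK and cytotoxic T cells, was the second most abundant marker. It was 27.3, 9.44, 11.5 and 12.4 TPM in controls, 9.18, 16.6, 15.7 and 8.30 TPM after knockdown, and 12.7, 20.4, 16.2 and 12.9 TPM in the rescue group. Without Ad-Ctrl replicate 1, the control livers of this gene all lay between the lowest and highest knockdown livers.

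The 3 granzyme genes are shown by the 250 bases before their start sites, since Gzmb was the granzyme that separated the rescue from the knockdown livers and Gzma and Gzmk did not. Gzmb lies on chromosome 14 (chr14:56258836-56262334, GRCm38.p6), and Gzma and Gzmk lie on chromosome 13, where they are 70.6 kb apart. The stretches are at chr14:56262335-56262584, chr13:113100982-113101231 and chr13:113180966-113181215 of GRCm38.p6, all on the minus strand, from the RefSeq promoter table, which held 22 of the 32 markers. Capitals mark matches on either strand to TGTGGT (the core of the RUNX motif), TTCNNNGAA (STAT), TGACTCA (AP-1), TCACACCT (T-box) or TGACGTCA (CRE), none of which overlapped another here.
Gzmb: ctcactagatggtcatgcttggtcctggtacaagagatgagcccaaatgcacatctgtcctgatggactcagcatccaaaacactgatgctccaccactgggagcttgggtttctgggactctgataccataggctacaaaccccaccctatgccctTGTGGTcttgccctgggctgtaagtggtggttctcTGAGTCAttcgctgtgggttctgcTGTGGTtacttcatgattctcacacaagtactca
Gzma: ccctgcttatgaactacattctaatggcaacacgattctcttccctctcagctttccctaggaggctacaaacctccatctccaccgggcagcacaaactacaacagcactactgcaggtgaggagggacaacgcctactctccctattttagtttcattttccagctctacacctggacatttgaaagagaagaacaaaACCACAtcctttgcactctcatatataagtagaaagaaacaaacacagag
Gzmk: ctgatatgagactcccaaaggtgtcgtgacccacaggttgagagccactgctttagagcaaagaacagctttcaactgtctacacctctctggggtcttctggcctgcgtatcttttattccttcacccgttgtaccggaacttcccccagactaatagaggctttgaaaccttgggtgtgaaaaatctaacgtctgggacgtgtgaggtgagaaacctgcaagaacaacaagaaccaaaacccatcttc
The Gzmb stretch held 2 RUNX matches, starting 93 and 34 bases before the start site, and 1 AP-1 match starting 58 bases before it. Gzma held 1 RUNX match and Gzmk none of the 5. Over 32851 promoters of that length, 14% held the RUNX letters and 4.46% the AP-1 letters. The RUNX letters were in 11 of the 22 markers with a sequence (Cxcr3, Cxcr6, Gzma, Gzmb, Klrb1c, Klrk1, Lck, Ncr1, Nkg7, Prf1 and Zap70), and the AP-1 letters in Gzmb alone. The STAT letters were in 3 of the 22 (Cd3d, Ifng and Nkg7) and in 7.02% of all promoters, the T-box letters in Nkg7 and 1.12%, and the CRE letters in Zap70 and 1.55%. These matches describe the letters and were not tested as binding sites.

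Among the NK cell receptors, Ncr1, encoding the activating receptor NKp46 on NK cells (chr7:4337715-4345184), was 1.31, 1.97, 1.54 and 1.097 TPM in control livers. It was 0.722, 1.1, 1.40 and 0.386 TPM after knockdown and 1.05, 0.489, 0.903 and 1.01 TPM in the rescue group. Every rescue liver was below every control liver, the nearest pair being 1.047 and 1.097 TPM, and the highest control was replicate 2, the liver that was lowest of its group for 18 of the 27 markers. Klrd1 (CD94), Klrk1 (NKG2D) and Klrb1c (NK1.1), lectin-like receptors also carried by some T cells, averaged 1.85, 2.63 and 0.443 TPM. Of the 50-base stretches in Klrb1c transcripts, 15.4% also occur in other genes, so its low value is uncertain. The sum of these 4 receptors over the sum of Cd3d, Cd3e and Cd3g was 0.748, 2.10, 2.23 and 1.27 in controls, 0.414 to 0.923 after knockdown and 0.751 to 0.993 in the rescue group. In this ratio, chosen after the values were seen, Ad-Ctrl replicates 2, 3 and 4 lay above the other 9 livers and Ad-Ctrl replicate 1 did not.

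Ccl5, a chemokine stored by memory CD8 T cells and NK cells, was the most abundant marker. It was 33.8, 8.50, 6.63 and 17.2 TPM in controls, 15.1, 18.6, 18.2 and 23.2 TPM after knockdown, and 19.9, 27.3, 17.4 and 17.5 TPM in the rescue group. Ad-Ctrl replicates 2 and 3 were below the other 10 livers, and Ad-Ctrl replicate 1 was above them. Ifng, encoding interferon gamma itself, was under 1 TPM in every liver: 0.131 to 0.521 in controls, 0.0781 to 0.740 after knockdown and 0.212 to 0.952 in the rescue group. It was left out by the filter, and 19.9% of its 50-base stretches also occur in an annotated neighbor.

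Il2rb, the beta chain of the interleukin-2 and interleukin-15 receptors, was 10.3, 4.81, 5.51 and 7.00 TPM in controls, 4.10, 6.67, 7.26 and 5.79 TPM after knockdown, and 5.89, 8.69, 6.90 and 6.34 TPM in the rescue group. These groups overlapped. Cxcr3, the receptor for CXCL9 and CXCL10, and Cxcr6, a receptor of liver-resident lymphocytes, averaged 2.05 and 2.13 TPM. Tbx21 (T-bet), a transcription factor of cytotoxic and helper type 1 cells, averaged 1.31 TPM, and its relative Eomes 0.524 TPM. Pdcd1, the checkpoint receptor PD-1 of activated T cells, ranged from 0.483 to 4.54 TPM in controls, 0.995 to 3.13 TPM after knockdown and 1.76 to 3.76 TPM in the rescue group.

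**Figure D2:**
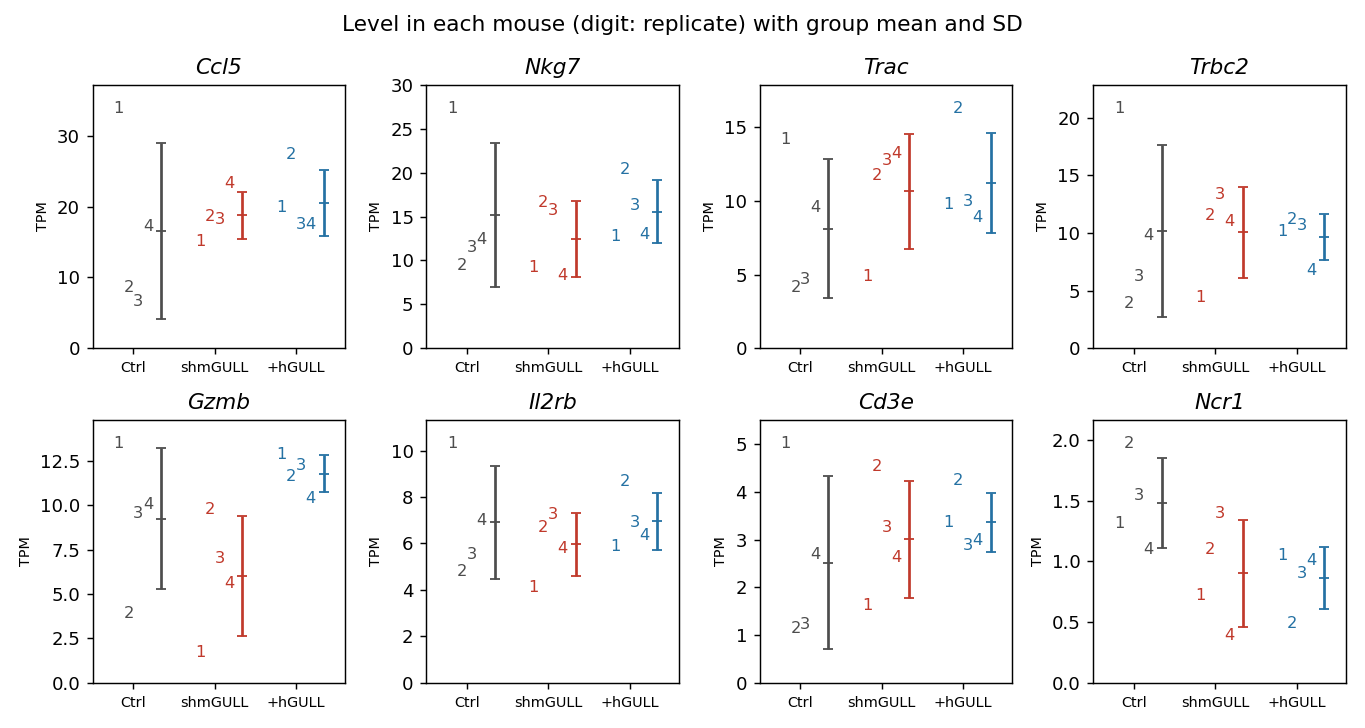
TPM (y axis, from 0) of the 6 most abundant markers, Cd3e and Ncr1 in each liver, by group; digits are replicate numbers, and bars are the group mean and SD of 4 mice. Gzmb is the panel in which the 4 rescue livers (10.4 to 12.8 TPM) clear the 4 knockdown livers (1.69 to 9.75 TPM), and Ad-Ctrl replicate 1 tops the control group in all panels but Ncr1.

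To ask whether loss of mGULL altered these markers, the knockdown and control livers were compared. None of the 27 tested markers passed the threshold used in the study (an unadjusted p under 0.05 together with a log2 fold change of more than 0.5 in either direction) in limma on log2(TPM + 1). Over all 16378 tested genes, 7.65% passed it. None had an adjusted p under 0.05 (3.23% of all genes), the smallest being 0.286, and 0 of the 27 had an unadjusted p under 0.05. None had groups that did not overlap, against 8.99% of all genes. Estimates lay above 0 for 16 markers and below 0 for 11, with a median of 0.11 (log2) against 0.09 over all genes. That direction turned with single control livers: the median was -0.11 without Ad-Ctrl replicate 2, with 10 markers above 0 and 17 below, -0.018 without Ad-Ctrl replicate 3, and 0.33 without Ad-Ctrl replicate 1, with 22 above and 5 below. The 6 tested T cell receptor genes had estimates of 0.12 to 0.42, and the 3 NK cell receptors of -0.40 to -0.34. Without Ad-shmGULL replicate 1 the NK cell receptors were at -0.047 (Klrd1), -0.155 (Klrk1) and -0.365 (Ncr1), and Gzmb at -0.20. The T cell receptor genes then ran from 0.32 (Cd3g) to 0.72 (Trac). With all mice the estimate was 0.42 ± 0.36 (SE) for Trac, 0.42 ± 0.37 for Ccl5, -0.61 ± 0.39 for Gzmb and -0.40 ± 0.20 for Ncr1. For 20 of the 27 the 95% interval lay between -1 and 1, so a change of 1 on the log2(TPM + 1) scale was outside it in either direction. That scale understates the fold change in TPM of low genes, so the same limit does not hold for their TPM. For the other 7, among them Gzmb (-1.45 to 0.23) and Ccl5 (-0.39 to 1.22), a change of 1 on that scale was inside the interval.

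This count rested on Ad-Ctrl replicate 1. Without it, 6 of the 27 markers passed the threshold, all higher after knockdown, against 10.1% of all genes: Cd3d, Cd8b1, Lck, Gzmk, Ccl5 and Cxcr6, with log2 fold changes of 0.55 (Cxcr6) to 0.83 (Ccl5). None of the 6 passed an adjusted p under 0.05, the smallest being 0.0629 (Cd3d, limma with Benjamini-Hochberg adjustment). The other single mice changed the count less. Without Ad-Ctrl replicate 2, 1 marker passed (Gzmb, lower), without Ad-shmGULL replicate 2 there were 2 (Gzmb and Klrk1, both lower), and without Ad-shmGULL replicate 3 there was 1 (Ncr1, lower). Leaving out Ad-shmGULL replicate 1 left 0. The names therefore differed with the liver left out.

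To ask whether hGULL changed the markers in knockdown livers, the rescue group was set against the knockdown group. 1 of the 27 markers passed the threshold, 3.70% of them, against 3% of all genes. That marker was Gzmb, higher by 1.03 ± 0.39 (log2, SE) in the rescue group, with an unadjusted p of 0.0206 in limma and an adjusted p of 0.411. An exact two-sided permutation test of its 4 against 4 livers gave p = 0.0286, the smallest that design allows. Any marker whose groups do not overlap gets that value, so it adds nothing to the lack of overlap. No marker had an adjusted p under 0.05, and neither did any other gene in this comparison (0% of all genes). Groups did not overlap for 1 of the 27, again Gzmb, against 6.38% of all genes. Both shares were near or under those of all genes, so neither sets the markers apart. Without Ad-shmGULL replicate 1, the liver with 1.69 TPM, the Gzmb estimate was 0.62 ± 0.30 with an unadjusted p of 0.0608 in limma, and 0 markers passed. Estimates were above 0 for 21 markers and below 0 for 6 with all mice, and above 0 for 12 and below 0 for 15 without that liver. The median was 0.12 with it and -0.05 without it, and the medians of all genes were 0.09 and 0.06. Leaving out Ad-shmGULL replicate 2 or replicate 4 gave 2 markers, Gzmb with Klrk1 and Gzmb with Cd4.

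**Figure D3:**
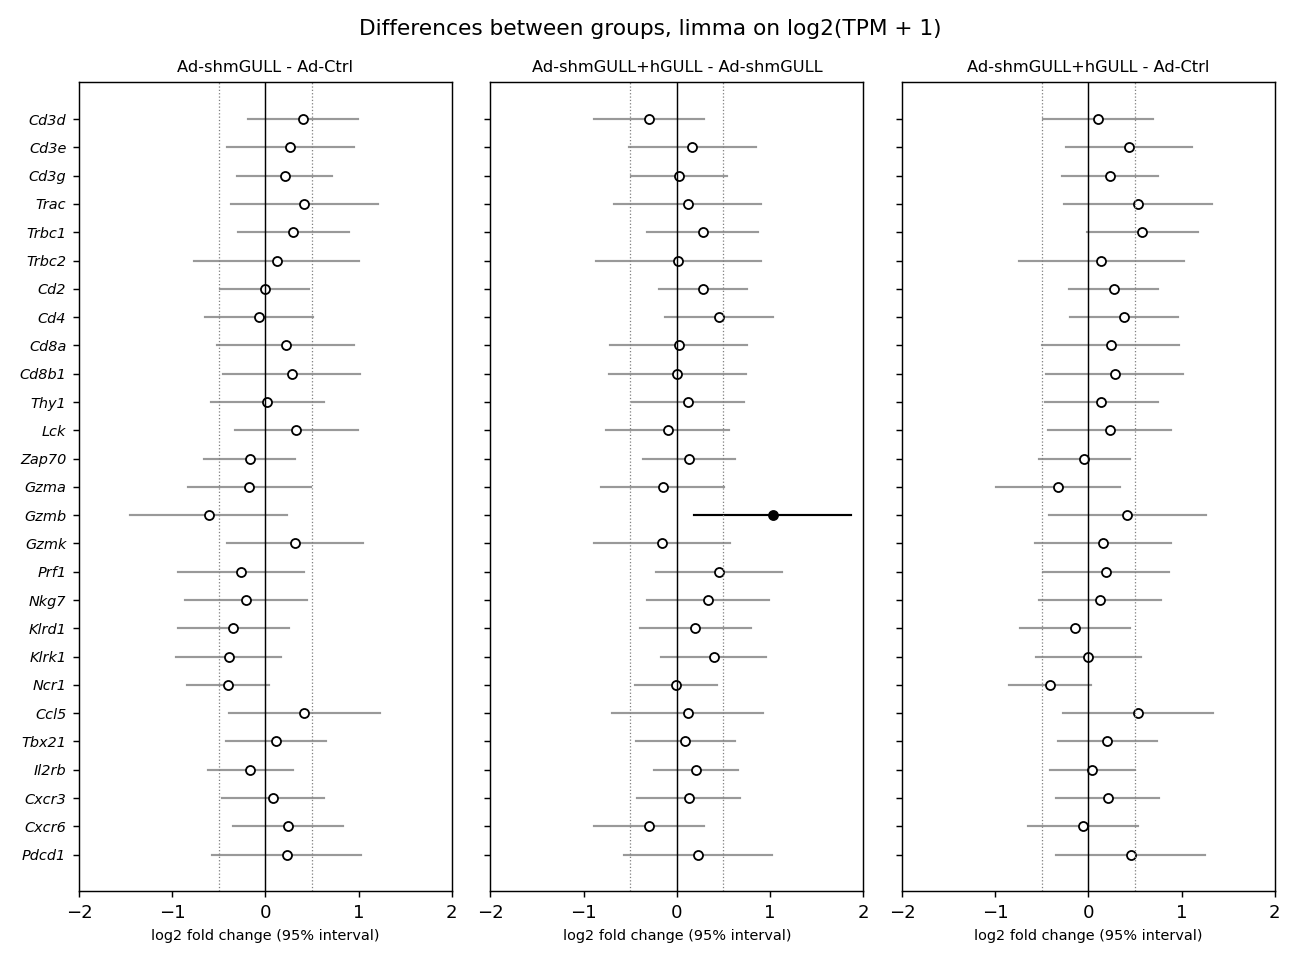
log2 fold change of log2(TPM + 1) with its 95% interval from limma (x axis) for the 27 tested markers (y axis) in 3 comparisons, with dotted lines at -0.5 and 0.5. The filled point is the marker past the threshold, Gzmb at 1.03 in rescue against knockdown; the other intervals all span 0.

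Set against the control group, the rescue livers again showed no marker past the threshold, whereas 7.49% of all genes passed it. None had an adjusted p under 0.05 (2.15% of all genes), the smallest being 0.207, and none had an unadjusted p under 0.05. Ncr1 was the 1 marker of 27 whose groups did not overlap, against 22.3% of all genes. It was lower by 0.41 ± 0.20 (log2, SE) with an adjusted p of 0.219 in limma. Its exact permutation p was 0.0286, the value that any marker without overlap gets with 4 livers against 4. Of the others, Trbc1 had the highest estimate of the 27, 0.58. The estimates were 0.53 ± 0.36 for Trac, 0.53 ± 0.37 for Ccl5 and 0.44 ± 0.31 for Cd3e. The median was 0.20 against 0.17 over all genes. Scaling by the median of ratios moved the median of all genes from 0.17 to -0.01 and that of the markers to 0.08. The order of the 2 medians turned with single livers: the markers were at -0.018 against 0.14 for all genes without Ad-Ctrl replicate 2, at 0.083 against 0.17 without Ad-Ctrl replicate 3, and at 0.12 against 0.17 without Ad-shmGULL+hGULL replicate 2. The controls here are those of the knockdown comparison, so the 2 sets of differences are not independent. Without Ad-Ctrl replicate 1, 7 markers passed the threshold, all higher in the rescue group, against 10.3% of all genes. They were Cd3e, Trac, Trbc1, Cd4, Cd8b1, Ccl5 and Pdcd1, with log2 fold changes of 0.58 (Cd4) to 0.95 (Ccl5), and 0 had an adjusted p under 0.05, the smallest being 0.0536 (Ccl5). Without Ad-Ctrl replicate 4, Trbc1 passed.

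**Figure D4:**
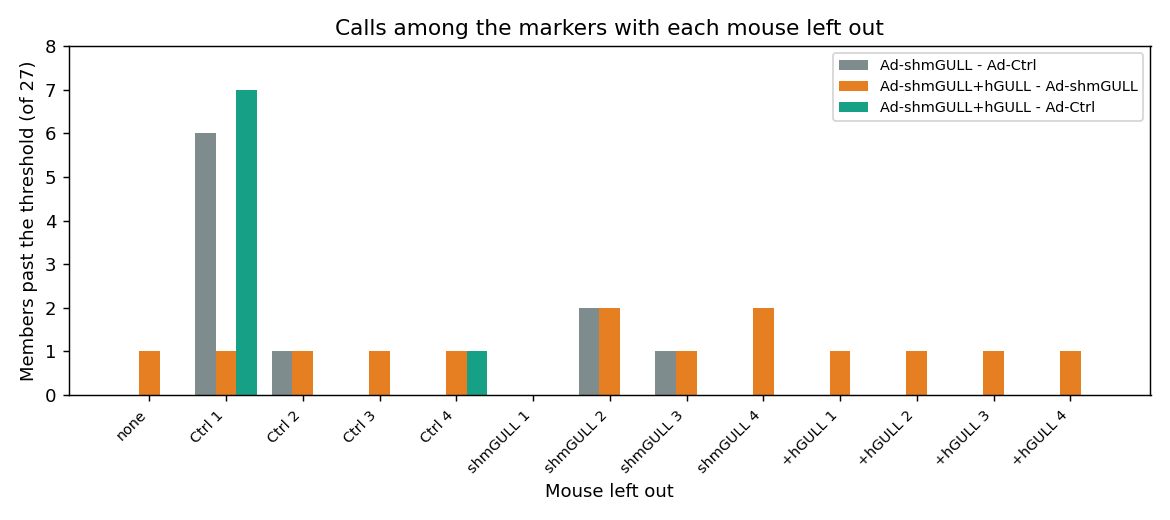
Number of the 27 tested markers past the threshold (y axis, bars from 0) in 3 comparisons, with all mice (none) and with each mouse left out in turn (x axis). Leaving out Ad-Ctrl replicate 1 gives 6 and 7 markers in the comparisons with the control group, and each other liver gives at most 2.

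The markers varied together from liver to liver within groups. After the group mean was taken off, the median marker correlated at r = 0.855 with the mean of the other markers over the 12 mice, against a median of 0.319 for all genes with the mean of the markers, and at 0.765 without Ad-Ctrl replicate 1. Many genes of other liver cells did so too. Their median r with the mean of the markers was 0.916 for pan-leukocyte and 0.781 for Kupffer cell and macrophage genes. It was 0.696 for sinusoidal endothelium and 0.657 for stellate cell and fibroblast genes, but 0.060 for neutrophil and -0.390 for hepatocyte genes. Kupffer cell and macrophage genes ran from -0.316 (Marco) to 0.901 (C1qa), with Timd4 at -0.274, Clec4f at -0.116 and Vsig4 at 0.001. Without Ad-Ctrl replicate 1, Marco was at -0.004, Timd4 at 0.005, Clec4f at 0.343 and Vsig4 at 0.733. These correlations are a description of 12 livers that share library preparation and are given without a test. Cd8a (0.996), Trbc2 (0.977), Il2rb (0.962) and Cd3e (0.956) were closest to the rest. Ncr1 (-0.218) was the only marker below 0, and Zap70 (0.562) and Klrd1 (0.624) were the next lowest. Without Ad-Ctrl replicate 1, Ncr1 was at -0.200, Cd3d (0.398), Gzma (0.449) and Zap70 (0.462) were the next lowest, and Klrd1 was at 0.765. Gzmb, at 0.7999, moved with the other markers within groups. The 10 other genes most like the markers were Itgal (0.981), the integrin chain LFA-1 alpha of leukocytes, Myo1f, Recql, Cerk, H2-DMa, Dock2, Smu1, Ifi30, Tmsb4x and Gmfg (0.970).

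Genes of leukocytes in general moved with the markers. The 20 pan-leukocyte genes summed to 625.7, 340.7, 363.7 and 457.7 TPM in the control livers, 325.4 to 547.7 TPM after knockdown and 437.3 to 518.5 TPM in the rescue group, with the highest liver being Ad-Ctrl replicate 1 and the lowest Ad-shmGULL replicate 1. None of the 20 was at 0 in any liver, and 0 of them passed the threshold in any of the 3 comparisons. Ptprc, the common leukocyte antigen CD45, was 17.3, 8.50, 9.62 and 11.97 TPM in controls. The summed markers were 13.2 times Ptprc in Ad-Ctrl replicate 1 and 8.25, 8.67 and 10.6 times in the other controls, against 9.13 to 11.8 times after knockdown and 10.3 to 12.2 times in the rescue group. The 14 Kupffer cell and macrophage genes summed to 968.1 to 1538 TPM in controls, 1011 to 1583 after knockdown and 1152 to 1404 in the rescue group. The 15 B cell and plasma cell genes summed to 166.8 to 175.5 TPM in controls, 180.1 to 219.1 after knockdown and 158.8 to 175.3 in the rescue group, and Ad-Ctrl replicate 1 was at 174.3 TPM. Singly, 8 of them were tested, and their within-group correlations with the mean of the markers ran from -0.542 (Sdc1, syndecan-1) to 0.822 (Cd22), with Ighm at 0.816 and Igkc at 0.794. Of that list Mzb1 was at 0 in Ad-Ctrl replicate 2, and the others were above 0 in every liver. The part these cells played in the markers' values was not tested.

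**Figure D5:**
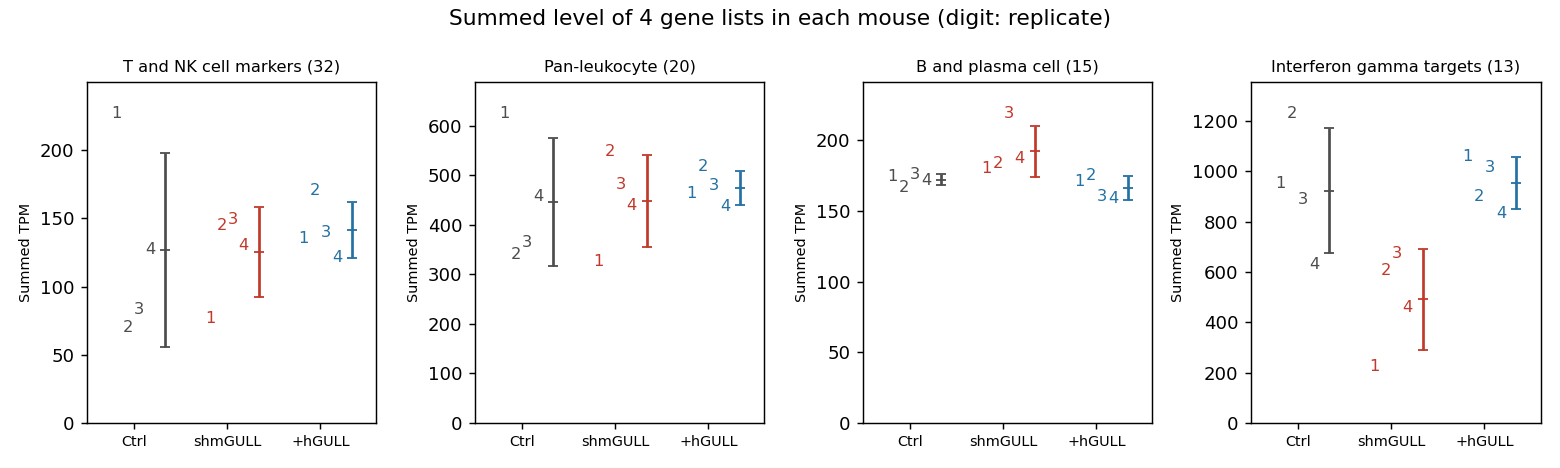
Summed TPM (y axis, from 0) of 4 gene lists in each liver by group; digits are replicate numbers, and bars are the group mean and SD of 4 mice. Marker and pan-leukocyte sums peak in Ad-Ctrl replicate 1 (227.2 and 625.7 TPM), B cell sums do not, and the lowest interferon gamma target sum is that of Ad-shmGULL replicate 1 (224.4 TPM).

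Other genes of the same cells, outside the 32 markers, were set beside the shares of all genes given above (7.65%, 3% and 7.49%). Of 26 other T cell signaling genes, 14 were tested and 0 passed the threshold in any comparison, with medians of 0.15, 0.03 and 0.13 in knockdown against control, rescue against knockdown and rescue against control. Of 27 other NK and cytotoxic genes, 12 were tested. S1pr5, a sphingosine-1-phosphate receptor of NK cell traffic, was the 1 that passed (8.33% of the 12, near the share of all genes), in both comparisons with controls. It was 3.597, 3.41, 3.87 and 3.57 TPM in controls, 6.07, 5.48, 5.69 and 5.95 TPM after knockdown, and 7.42, 6.96, 5.03 and 5.64 TPM in the rescue group. It was higher by 0.56 ± 0.12 (log2, SE; adjusted p = 0.0256) after knockdown and by 0.64 ± 0.12 (adjusted p = 0.0381) in the rescue group in limma. After knockdown the adjusted p was not under 0.05 without any 1 of Ad-Ctrl replicates 2, 3 and 4 and Ad-shmGULL replicates 2 and 4, although the threshold was still passed. In the rescue group this held at least without Ad-Ctrl replicate 2. No control liver reached a knockdown or rescue liver. S1pr5 was flat across the controls, at 3.41 to 3.87 TPM, where Nkg7 ran from 9.44 to 27.3 TPM. Within groups S1pr5 correlated with the mean of the markers at r = -0.015. Of 8 sinusoidal endothelium genes, 2 passed the threshold after knockdown (Stab2 and Oit3, both higher) and 0 in rescue against control. All 8 estimates lay above 0 in both comparisons, with medians of 0.38 and 0.32. In each, 4 of the 8 had an unadjusted p under 0.05 in limma, against 3316 and 4149 of all 16378 genes. The part of endothelial cells in the S1pr5 values was not tested. Of 13 other checkpoint and regulatory T cell genes, 6 were tested and 0 passed in any comparison.

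Of 13 chemokines that draw T cells, 11 were tested. After knockdown 1 passed (9.09%, against 7.65% of all genes), Cxcl9, which is induced by interferon gamma and binds CXCR3. In rescue against knockdown 2 passed (18.2%, against 3% of all genes), Cxcl9 and Cx3cl1, both higher. In rescue against control 1 passed (9.09%, against 7.49% of all genes), Ccl8, higher. The shares in the comparisons with controls were near those of all genes, so they do not set the list apart. Cxcl9 was 156.7, 174.9, 136 and 84.6 TPM in controls, 21.9, 123, 115.6 and 71.2 TPM after knockdown, and 150.7, 149.9, 154.6 and 110.5 TPM in the rescue group. It was lower by 0.94 ± 0.43 after knockdown (log2, SE; adjusted p = 0.245 in limma) and higher by 1.01 ± 0.43 in rescue against knockdown (adjusted p = 0.440). The groups overlapped in both comparisons, and neither call held without Ad-shmGULL replicate 1, with estimates of -0.41 and 0.48. The call after knockdown was also lost without any 1 of Ad-Ctrl replicates 1, 2 and 3, Ad-shmGULL replicate 4 and the rescue livers. The call in rescue against knockdown was also lost without Ad-shmGULL replicate 4 or any 1 of rescue replicates 1, 2 and 3.

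Targets of interferon gamma, the cytokine that both cell types make, were lower after knockdown. Their list was chosen with earlier results of these data known, so the shares given here describe it and are not a test. Of 13 such genes 11 were tested, and 8 (72.7%) were lower by the threshold, against 7.65% of all genes called in either direction, 1 of them (Irgm1) with an adjusted p under 0.05. No target had one without any 1 of Ad-Ctrl replicates 2, 3 and 4, Ad-shmGULL replicates 2 and 4 and the 4 rescue livers. Without Ad-shmGULL replicate 3, 6 of the 11 had one. Without Ad-shmGULL replicate 1, the liver with the lowest targets, 6 of the 11 were lower, Socs1 and Tap1 being lost. In rescue against knockdown 9 of the 11 (81.8%) were higher by the threshold, against 3% of all genes, and 7 without Ad-shmGULL replicate 1. None of the 9 had an adjusted p under 0.05, and in 7 of the 11 the groups did not overlap. In rescue against control 1 was higher (Ciita, the activator of MHC class II genes), a call lost without any 1 of Ad-Ctrl replicates 2, 3 and 4, and 0 were lower. Within groups the targets correlated with the mean of the markers at 0.157 (Irgm1) to 0.895 (Gbp2b), with a median of 0.343 over the 11. The 13 genes summed to 949.2, 1230, 885.8 and 627.8 TPM in controls, 224.4, 605.6, 673.2 and 457.7 TPM after knockdown, and 1059, 899.8, 1015 and 833.6 TPM in the rescue group. Igtp, Irgm1 and Gbp2, interferon-induced GTPases and the most abundant of the list, were lower by 1.23 ± 0.37, 1.14 ± 0.28 and 1.15 ± 0.30 (log2, SE) after knockdown, with adjusted p of 0.0902, 0.0450 and 0.0551 in limma. They were higher by 1.34 ± 0.37, 1.02 ± 0.28 and 1.21 ± 0.30 in rescue against knockdown, with adjusted p of 0.320, 0.318 and 0.318. The control liver with the highest targets, Ad-Ctrl replicate 2, had the lowest summed lymphocyte markers, 70.1 TPM, and the knockdown liver with the lowest targets, Ad-shmGULL replicate 1, also had the lowest markers of its group, 76.9 TPM. The difference between the lists was not tested.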

How the data were processed

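Liver RNA was sequenced with a strand-specific kit in 12 mice, 4 in each of 3 groups taken from the sample titles. The authors trimmed reads with fastp 0.23.2, checked them with FastQC 0.11.8, aligned them to GRCm38.p6 with HISAT2 and, per the submitters' processing notes, used featureCounts. The deposited unit is TPM, with a total of 1000000 in each mouse, so the depth per mouse and the precision it gives are unknown. All 12 columns of the deposited table were used.

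The 32 markers were matched by gene name, and the 27 with a mean of at least 1 TPM over the 12 mice entered the fit across all genes (not tested: Cd247, Cd5, Klrb1c, Ifng and Eomes). limma 3.58.1 in R 4.3.3 was fitted to log2(TPM + 1) with 1 term for the 3 groups, no covariate and a mean-variance trend, for 16378 genes. A fold change is therefore on the log2(TPM + 1) scale and understates that of low genes. Calls used the study's rule, an unadjusted p under 0.05 together with a log2 fold change of more than 0.5 in either direction. A second rule was an adjusted p (Benjamini-Hochberg, over all tested genes) under 0.05. Single markers were also compared by an exact two-sided permutation test of 4 mice against 4. The labels do not say whether replicates came from separate cages or days, so p-values measure the spread between these mice.

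The markers and the lists of other genes were chosen with earlier results of these data known. All 32 markers are named by role; values in every mouse are given for those past the threshold and the 6 of highest mean TPM, and from other lists for at most 3 genes each, by mean TPM, or for genes with an adjusted p under 0.05. Values in every mouse for Cd3e, Gzma and Ncr1, and the named Stab2, Oit3, Cx3cl1, Ccl8, Ciita and Ptprc, were chosen after their values were seen. Positions and promoters came from RefSeq for GRCm38.p6, and shared 50-base stretches from the GENCODE transcripts of a later release, using Python 3.11.15 (figures: matplotlib 3.10.9). The fit was repeated without a filter, with a filter at 5 TPM, with 0.1 as pseudocount, after scaling by the median of ratios, on the 2 groups of each comparison alone, with array weights, without the trend, with a replicate block, and without each mouse in turn. The fit was tested on simulated data.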

Additional observations from a re-analysis of the deposited data

Results flagged for a closer look

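In 99 sets of 4 mice (32 markers and their sum, in 3 groups), 6 held a mouse whose gap to the nearest other exceeded the 95% critical value of Dixon's test for 4 values; chance alone marks about 1 set in 20. Both control values belonged to Ad-Ctrl replicate 1, with Gzma at 11.3 TPM, where the other controls were at 4 to 4.64, and Nkg7 at 27.3 TPM, where they were at 9.44 to 12.4. In Ad-shmGULL replicate 1, Thy1 was at 2.57 TPM against 4.77 to 5.20 in the other knockdown livers. In Ad-shmGULL+hGULL replicate 2, Trac was at 16.3 TPM against 8.91 to 9.98, and Tbx21 at 1.90 TPM against 1.25 to 1.30. In Ad-shmGULL+hGULL replicate 4, Cd3d was at 1.51 TPM against 2.23 to 2.37. The summed level of the 32 markers had no such mouse in any group, although Ad-Ctrl replicate 1 was the highest of the 12.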

How the results depend on the processing

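Under the 8 alternatives that left out no mouse, the counts of markers past the threshold were 0, 1 and 0 in knockdown against control, rescue against knockdown and rescue against control, except for 1 (Cd3d) in the first with array weights, and 1 in the last both with array weights (Trbc1) and with median-of-ratios scaling (Ncr1). With each mouse left out in turn the counts ran from 0 to 6, from 0 to 2 and from 0 to 7. No alternative gave a marker with an adjusted p under 0.05. With the replicate block the counts were 0, 1 and 0, and Gzmb in rescue against knockdown stayed at 1.03 with an adjusted p of 0.513 in limma. Same-numbered mice deviated together at r = -0.244 to 0.154. Differently numbered mice were not set beside them, so whether the numbers pair the mice was not tested. Over its alternatives, the adjusted p of Gzmb in that comparison ran from 0.165 to 0.699.

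Over all 27 tested markers, leaving out 1 mouse turned the sign of 13, 14 and 14 estimates in the 3 comparisons, which were at most 0.28 (Cd8b1), 0.20 (Klrd1) and 0.29 (Cd8b1) in size with all mice. Among the 13 genes followed singly, in rescue against knockdown, Ncr1 was 0.017 with a pseudocount of 0.1 and 0.083 with array weights, Trbc2 was -0.065 with median-of-ratios scaling and -0.11 with array weights, and Trac was -0.054 with array weights. In rescue against control, median-of-ratios scaling gave -0.064 for Nkg7, -0.041 for Trbc2, -0.13 for Il2rb, -0.13 for Cxcl9, -0.089 for Igtp and -0.14 for Gbp2, and array weights gave 0.043 for Irgm1. With each mouse left out, knockdown against control ran from -0.38 to 0.099 for Nkg7, -0.29 to 0.028 for Il2rb and -0.20 to 0.52 for Trbc2. Rescue against knockdown ran from -0.19 to 0.24 for Trac, -0.30 to 0.18 for Trbc2, -0.022 to 0.34 for Cd3e, -0.15 to 0.11 for Ncr1 and -0.023 to 0.22 for Ccl5. Rescue against control ran from -0.047 to 0.43 for Nkg7, -0.19 to 0.53 for Trbc2, -0.087 to 0.23 for Il2rb, -0.28 to 0.035 for Irgm1, -0.13 to 0.25 for Gbp2, -0.14 to 0.20 for Cxcl9 and -0.089 to 0.31 for Igtp. The causes were not tested. Without read counts, the share of the spread of low genes that is counting error is unknown.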

Other observations

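Neutrophil genes were lower in part in rescue against knockdown. Their list too was chosen with earlier results of these data known. Of 7 such genes 6 were tested, and 2 (33.3%, against 3% of all genes) were lower by the threshold, S100a8 and S100a9, calcium-binding proteins of neutrophils. The estimates of all 6 lay below 0, with a median of -0.39, no gene had an adjusted p under 0.05 in limma, and without Ad-shmGULL replicate 1 or replicate 3 none passed. In the other comparisons 0 of the 6 passed. The 7 genes summed to 246.7, 212.9, 123.5 and 111.2 TPM in control livers, 267.6, 129.3, 283.4 and 166.3 TPM after knockdown, and 98.0, 116.8, 108.2 and 151.5 TPM in the rescue group, and the groups overlapped. Of 8 dendritic cell genes 4 were tested and 0 passed in any comparison. They summed to 17.1 to 30.4 TPM in controls, 15.9 to 29.5 TPM after knockdown and 23.2 to 25.6 TPM in the rescue group, with Ad-Ctrl replicate 1 the highest and Ad-shmGULL replicate 1 the lowest of the 12, as for the pan-leukocyte genes. Of the 14 Kupffer cell and macrophage genes 1 passed, Marco, a scavenger receptor, lower in knockdown and in rescue livers than in controls. That is 7.14% of the 14 in each, near the shares of all genes (7.65% and 7.49%), so it does not set the list apart. The call after knockdown was lost without any 1 of Ad-Ctrl replicate 2 and Ad-shmGULL replicates 1 and 4. Of 8 tested B cell and plasma cell genes 1 passed (12.5%, against 7.65% of all genes), Ighm, the heavy chain of IgM, higher after knockdown.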
